A study of Mus musculus with 5 samples.

Results

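The ligands, receptors and latent binding proteins of the TGF-beta branch of signalling were followed in the atrioventricular canal (AVC) of control mouse hearts and of hearts with a conditional deletion of Sox9. The AVC lies between the atria and the ventricles and forms the endocardial cushions, from which the valves develop. The set is 10 genes named by symbol, 3 ligands (Tgfb1, Tgfb2, Tgfb3), 3 receptors (Tgfbr1, Tgfbr2, Tgfbr3) and 4 latent binders (Ltbp1, Ltbp2, Ltbp3, Ltbp4). All 10 were present, with 1 transcript row each, among the 14697 rows of the deposited expression table. Both groups were C57BL/6 embryos at embryonic day 12.5. The control group, labelled WT, had the genotype Sox9fl/fl:+/+, so floxed Sox9 was present without any Cre. The mutant group, labelled Sox9 cKO, had the genotype Sox9fl/fl:Tie2-Cre/+. Tie2-Cre acts in endothelial cells, in the cushion mesenchyme that descends from them and in blood lineages, and the myocardium in the dissected AVC lies outside these lineages. AVCs of 1 genotype were pooled, 2 RNA-seq libraries were made per genotype, and the authors deposited 1 merged value per transcript and genotype. There is therefore no replicate spread and no test: every difference below is a difference between 1 value and 1 value, read against the differences of all other transcripts.

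TGF-beta ligands are secreted as latent complexes. The mature dimer stays bound to its own propeptide, and the propeptide is linked to a latent TGF-beta binding protein (LTBP) that anchors the complex in the extracellular matrix until integrins or proteases release the ligand. The free ligand binds the type II receptor Tgfbr2, which activates the type I receptor Tgfbr1, which phosphorylates SMAD proteins. In the AVC this pathway takes part in the transition of endocardial cells to the mesenchyme of the cushions, and Tgfbr3 (betaglycan) is the co-receptor that presents TGF-beta2 to the signalling receptors.

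Levels are given as nFPKM, the authors' further normalized FPKM (sequenced fragments divided by transcript length and by library size). Dividing by length allows levels of different genes to be set beside each other. How the further normalization was made is not stated in the sources used here. Comparisons of level between genes therefore assume that it kept this property. Differences are given as the relative log2 ratio, which is the log2 ratio of cKO to WT after adding 1 to both values, minus the median of that ratio over all transcripts. That median, over the 13793 transcripts that reached 1 nFPKM in WT or cKO, was -0.11. The central 90% of all transcripts lay between -0.45 and 0.49 on this relative scale. In the same values Sox9, the deleted gene, stood at 36.7 nFPKM in WT against 14.7 nFPKM in cKO (relative log2 ratio -1.16), so 39.9% of its WT level was still measured. Markers of the labelled tissues were all detected. The 10 markers each of cushion mesenchyme, endocardium and myocardium stood at 20.0 nFPKM or more in WT and at 7.20 nFPKM or more in cKO. Summed over the list, cushion mesenchyme markers (Sox9 included) stood at 2413 nFPKM in WT against 1538 in cKO, with 0 of 10 above the all-transcript median. Endocardial and endothelial markers stood at 939 and 1152 nFPKM with 10 of 10 above it, myocardial markers at 29758 and 31804 nFPKM with 5 of 10, epicardial markers at 321 and 405 nFPKM with 8 of 10, erythroid markers at 40259 and 91535 nFPKM with 10 of 10, and macrophage markers at 155 and 129 nFPKM with 2 of 9. The sums are not centred, while the counts are taken against the all-transcript median. The higher myocardial sum in cKO rests on Actc1, at 11825 nFPKM in WT against 14778 in cKO. Myl7 (4384 and 4040 nFPKM) and Tnnt2 (4047 and 3642 nFPKM), the next most abundant of that list in WT, stood lower. In values from whole tissue, fewer cells of a type and less RNA per cell cannot be told apart. Whether the different marker levels take part in any difference of the 10 genes was not tested.

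Most of the 10 genes stood at similar levels in both genotypes, and the 2 that differed most went in opposite directions. Ltbp3, a latent binder, was lower in cKO and Tgfbr3, the co-receptor, was higher. The 3 ligands, the type II receptor Tgfbr2 and the most abundant latent binder Ltbp1 had relative log2 ratios between -0.16 and 0.16. Tgfbr1 (-0.31) and Ltbp4 (-0.36) lay between these genes and Ltbp3. Both lay below the middle 90% of transcripts of similar level, which began at -0.27 for Tgfbr1 and -0.28 for Ltbp4. Ltbp3 also lay below the range for its level and Tgfbr3 above it, as given below. None of the 10 genes met a 2-fold rule, which 0.834% of all transcripts met in the higher direction and 0.674% in the lower, 1.51% in all. A 1.5-fold rule (a relative log2 ratio of at least 0.585 in size) was met by 1 gene in the higher direction, where 3.44% of all transcripts met it, and by 1 gene in the lower direction, where 2.82% of all transcripts met it. The median relative log2 ratio of the 10 genes was -0.09, beside 0 for all transcripts by construction, with 4 genes above and 6 below.

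**Figure D1:**
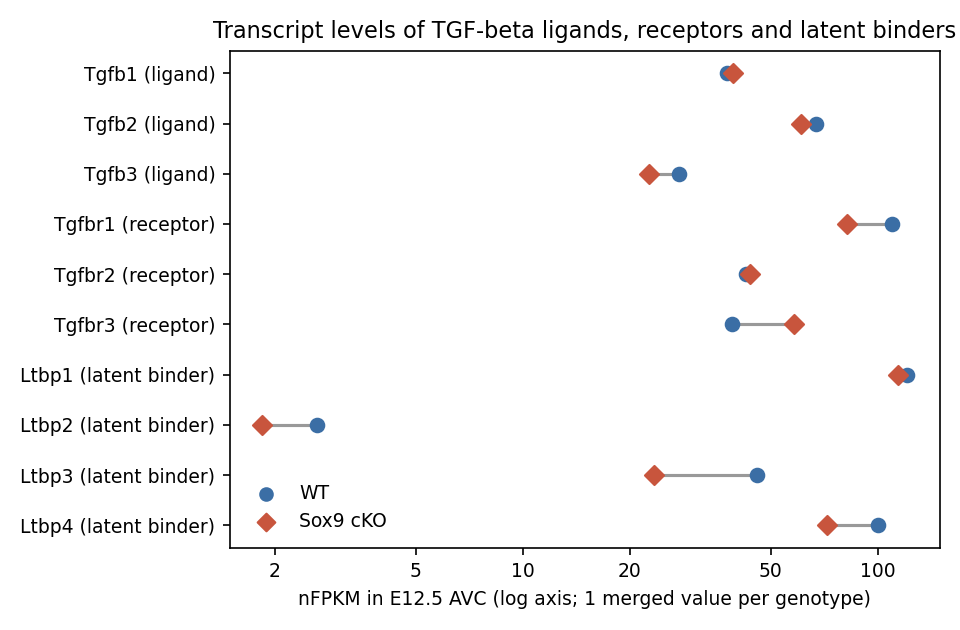
Levels of the 10 genes in nFPKM (horizontal log axis) in WT (circles) and Sox9 cKO (diamonds), 1 merged value per genotype, with a line joining the values of a gene. Ltbp3 moves furthest to the left (45.8 to 23.4 nFPKM) and Tgfbr3 furthest to the right (38.7 to 58.0 nFPKM).

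**Figure D2:**
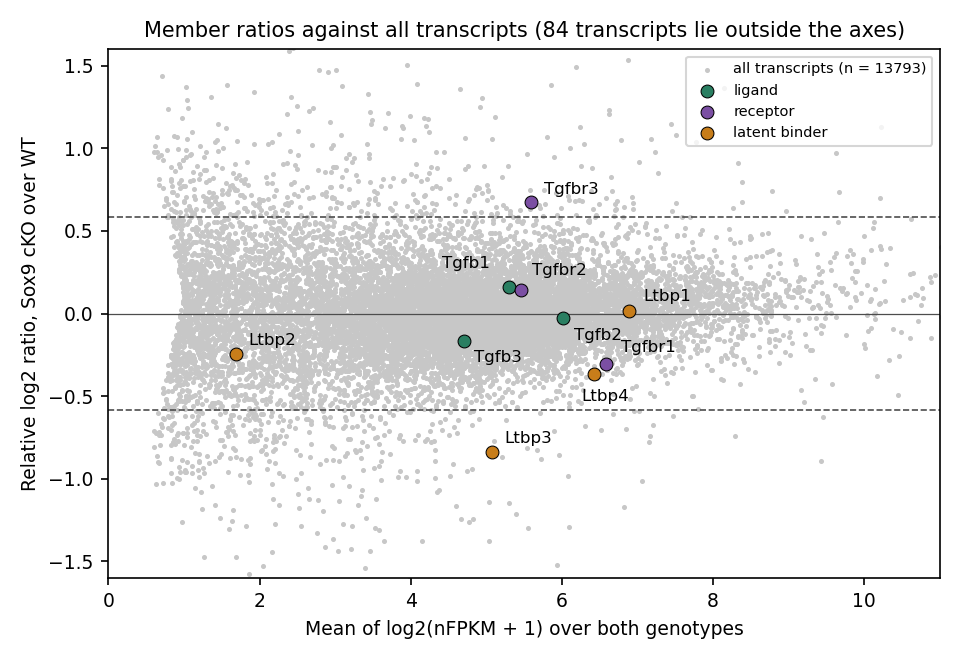
Relative log2 ratio of cKO to WT (vertical axis) against the mean log2(nFPKM + 1) of both genotypes (horizontal axis) for 13793 transcripts in grey and the 10 genes in colour by role; dashed lines mark 1.5-fold and 84 transcripts lie outside the axes. Ltbp3 (-0.84) and Tgfbr3 (0.68) lie outside the dashed lines and the other 8 genes lie between them.

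Promoter sequence is shown for 3 of the genes that differ in role and in response: Ltbp3, the gene with the largest difference towards lower values, Tgfbr1, the most abundant receptor, and Tgfb2, the most abundant ligand. RefSeq promoter windows (build GRCm38.p6, 250 bases before to 50 after an annotated start) were at hand for 8 of the 10 genes, in 12 windows; Tgfb3 and Tgfbr3 had no entry. Each stretch below runs from 210 bases before the start to 5 bases from the start on, 5′ to 3′ on the strand of the gene, and for Tgfbr1 the more upstream of 2 windows is shown. Capitals mark exact matches, on either strand, to the SOX core letters ACAATG or ACAAAG, the SMAD element CAGACA and the core of the hypoxia element ACGTG.
Ltbp3 (chr19:5740690-5740904, plus strand): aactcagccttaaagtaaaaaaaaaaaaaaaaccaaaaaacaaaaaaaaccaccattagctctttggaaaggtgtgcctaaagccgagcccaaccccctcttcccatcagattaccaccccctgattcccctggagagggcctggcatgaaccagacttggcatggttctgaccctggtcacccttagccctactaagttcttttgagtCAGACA
Tgfbr1 (chr4:47353012-47353226, plus strand): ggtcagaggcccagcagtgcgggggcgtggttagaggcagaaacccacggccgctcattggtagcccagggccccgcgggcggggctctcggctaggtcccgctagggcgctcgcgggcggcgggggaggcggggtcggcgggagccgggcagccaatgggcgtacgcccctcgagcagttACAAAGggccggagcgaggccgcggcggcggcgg
Tgfb2 (chr1:186705985-186706199, minus strand): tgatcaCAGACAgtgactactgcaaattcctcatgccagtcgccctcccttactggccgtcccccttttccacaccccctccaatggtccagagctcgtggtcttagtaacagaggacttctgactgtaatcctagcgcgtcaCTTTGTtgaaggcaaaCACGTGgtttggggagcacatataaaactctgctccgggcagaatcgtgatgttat
Tgfbr1 holds ACAAAG with its first base 29 bases before the start. Tgfb2 holds the reverse complement of ACAAAG beginning 67 bases before the start and, beginning 51 bases before it, CACGTG, in which ACGTG matches both strands with overlap. The Ltbp3 stretch holds CAGACA across the start and neither SOX core; this says only that those letters are not in the stretch. ACAAAG or its reverse complement was found in 5 of the 12 windows, those of Tgfb2, Tgfbr1 and Ltbp1, and in 14.3% of the 13304 windows of genes in the expression table. Tgfbr1 and Ltbp1 each gave 2 of these windows, so by gene the count was 3 of 8, which cannot be set beside a share of windows. ACAATG was found in 1 window, of Ltbp1, and in 7.73% of the windows of genes in the table. CAGACA was found in 4 windows (16.3% of those windows), ACGTG in 3 (24.5%) and the SP1 box GGGCGG in 6 (60.2%). Of the 3 genes with a SOX core in a window, Tgfb2 and Ltbp1 stood near the all-transcript median and Tgfbr1 below it, as given next. A match to these letters is not evidence of binding. Where SOX9 peaks lie relative to the 10 genes was not analysed here.

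Among the ligands, which bind the same receptor pair, Tgfb2 was the most abundant in both genotypes, followed by Tgfb1 and Tgfb3. Tgfb2 (NM_009367), the ligand most closely tied to cushion formation in the mouse, stood at 66.8 nFPKM in WT against 61.0 in cKO. Tgfb1 (NM_011577) stood at 37.5 nFPKM in WT against 39.1 in cKO. Tgfb3 (NM_009368) stood at 27.5 nFPKM in WT against 22.7 in cKO. The relative log2 ratios were -0.02 for Tgfb2, 0.16 for Tgfb1 and -0.16 for Tgfb3, so none came near the 1.5-fold rule. Summed, the ligands stood at 132 nFPKM in WT against 123 in cKO, which is 93.0% of the WT sum. Tgfb2 made up 50.7% of that sum in WT and 49.7% in cKO, Tgfb1 28.4% and 31.8%, and Tgfb3 20.9% and 18.5%. Their order was the same in both genotypes.

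The ligands also lay well inside the range of transcripts of similar level. Within 0.5 log2 units of the mean level of Tgfb2 there were 2235 transcripts, the central 90% of which lay between -0.28 and 0.37, and 41.7% of which had a lower ratio than Tgfb2. The same share was 81.1% for Tgfb1 among 3024 transcripts and 22.7% for Tgfb3 among 3050 transcripts.

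The receptors did not move together. Tgfbr1 (NM_009370), the type I kinase receptor, stood at 109.7 nFPKM in WT against 82.0 in cKO, a relative log2 ratio of -0.31. Tgfbr2 (NM_009371), the type II kinase receptor, stood at 42.5 nFPKM in WT against 43.7 in cKO, a relative log2 ratio of 0.15. Tgfbr3 (NM_011578), betaglycan, stood at 38.7 nFPKM in WT against 58.0 in cKO, a relative log2 ratio of 0.68. Thus the type I receptor was lower in cKO, the type II receptor was nearly level and the co-receptor was higher. Of the 2765 transcripts within 0.5 log2 units of the mean level of Tgfbr3, 99.4% had a lower ratio than Tgfbr3, and the middle 90% ran from -0.30 to 0.37. Of 1482 transcripts at the level of Tgfbr1, 3.44% had a lower ratio than Tgfbr1, where the middle 90% ran from -0.27 to 0.41, and Tgfbr1 did not meet the 1.5-fold rule. Without centring on the all-transcript median the log2 ratio of Tgfbr3 was 0.57, just under the limit of 0.585, and the gene no longer met the 1.5-fold rule.

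Ratios between receptors within a genotype would not change under a scaling by 1 factor per genotype; whether the further normalization was of that kind is not stated in the sources used here. The Tgfbr3 level was 0.353 times that of Tgfbr1 in WT and 0.707 times in cKO, a 2.00-fold difference between the ratios. Tgfbr1 over Tgfbr2 was 2.58 in WT against 1.88 in cKO, and Tgfbr3 over Tgfbr2 was 0.911 in WT against 1.33 in cKO. Tgfbr3 thus passed from the least abundant receptor in WT to the second in cKO, although its WT level of 38.7 nFPKM was close to the 42.5 nFPKM of Tgfbr2 and the spread between libraries is unknown. The summed level of the receptors was 191 nFPKM in WT against 184 in cKO, so the makeup of the group differed more than its sum. Tgfbr1 made up 57.4% of the sum in WT and 44.6% in cKO, Tgfbr2 22.3% and 23.8%, and Tgfbr3 20.3% and 31.6%. Betaglycan is also made by endothelial and epicardial cells. The marker sums of both lists, given above, stood higher in cKO in the same values. In the epicardial list, with 8 of 10 genes above the all-transcript median, Krt19 (52.0 and 107 nFPKM) carried most of the difference of the sums. Tcf21 (65.1 and 45.5 nFPKM) and Tbx18 (57.7 and 47.6 nFPKM) stood lower in cKO. The part of either list in the Tgfbr3 difference was not tested.

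**Figure D3:**
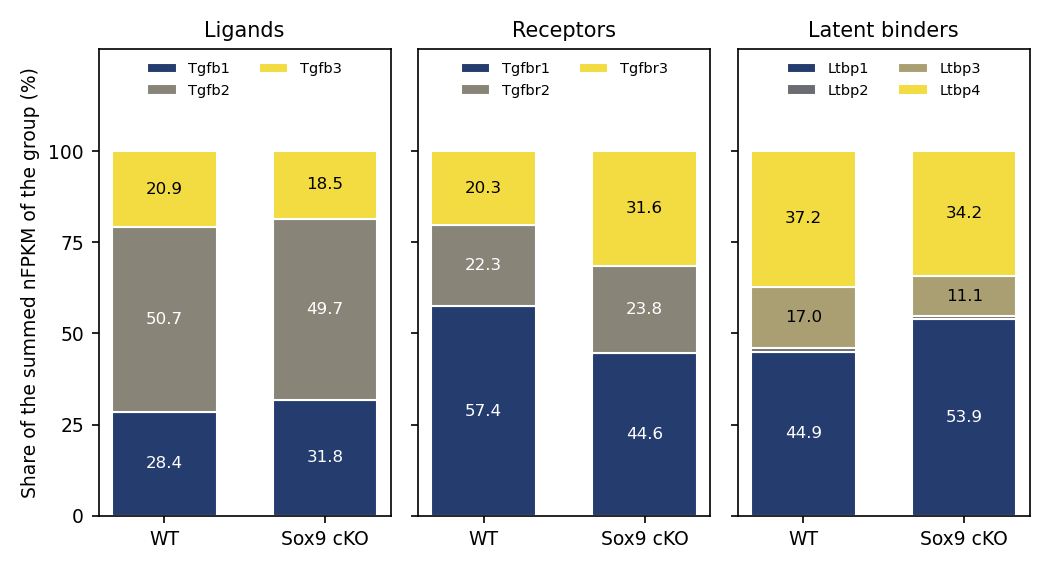
Share of each gene in the summed nFPKM (vertical axis, percent) of the ligands, the receptors and the latent binders, with 1 stacked bar for WT and 1 for Sox9 cKO in each panel. Ligand shares are alike in both bars, the Tgfbr3 share grows from 20.3% to 31.6% and the Ltbp3 share shrinks from 17.0% to 11.1%; Ltbp2 is under 1% in both.

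Of the 4 latent binders, Ltbp3 alone met the 1.5-fold rule, in the lower direction, where 2.82% of all transcripts met it. Among the 4 genes 1 stood above and 3 below the all-transcript median, with a median of -0.30. Ltbp3 (NM_008520), which binds the latent forms of all the ligands, stood at 45.8 nFPKM in WT against 23.4 in cKO, 51.0% of the WT value. Its relative log2 ratio was -0.84, and 1.24% of all transcripts had a lower one. Of 3058 transcripts within 0.5 log2 units of its mean level, 0.458% had a lower ratio, where the middle 90% ran from -0.34 to 0.36. Ltbp4 (NM_001113549), which binds latent TGF-beta1 and takes part in elastic fibre assembly, stood at 100.4 nFPKM in WT against 72.2 in cKO. Its relative log2 ratio was -0.36, within the 1.5-fold rule. Of 1673 transcripts at its level 2.15% had a lower ratio, where the middle 90% ran from -0.28 to 0.42. Ltbp1 (NM_019919), which also binds all the latent ligands, stood at 121 nFPKM in WT against 114 in cKO. Its relative log2 ratio was 0.01, and it turned to -0.01 with a pseudocount of 5 and to -0.09 without centring, so it had no direction. Ltbp2 (NM_013589), which is a microfibril protein and does not bind latent TGF-beta, was the least abundant of the 10 genes, at 2.63 nFPKM in WT against 1.85 in cKO. Its relative log2 ratio was -0.24, inside the middle 90% of -0.70 to 0.68 for transcripts at that level, and a pseudocount of 1 understates ratios at such low levels.

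The makeup of the latent binders differed accordingly. Ltbp1 made up 44.9% of the summed level in WT and 53.9% in cKO, Ltbp4 37.2% and 34.2%, and Ltbp3 17.0% and 11.1%. Ltbp1 stood at 2.65 times the level of Ltbp3 in WT and at 4.87 times in cKO. The sum of the 4 genes was 270.1 nFPKM in WT against 211 in cKO, 78.2% of the WT value, while the ligand sum was 93.0% of its WT value. The 3 binders with known affinity for latent TGF-beta (Ltbp1, Ltbp3, Ltbp4) together stood at 2.03 times the summed ligand level in WT and at 1.71 times in cKO. Ltbp3 was the fifth most abundant of the 10 genes in WT and the eighth in cKO, while Tgfbr3 went from the seventh to the fifth place. The first 4 places, held by Ltbp1, Tgfbr1, Ltbp4 and Tgfb2, were in the same order in both genotypes.

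The rest of the pathway was described with 4 lists holding 66 distinct genes past the filter, 5 of which are in 2 lists. Of these 66 genes, 1 was higher and 8 lower by the 1.5-fold rule, 13.6% in all, beside 6.26% of all transcripts; 32 stood above and 34 below the all-transcript median. The lists were drawn up with earlier results of these data known, so the share is a description only.

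Genes that anchor and activate the latent complex mostly stood near the all-transcript median. Of 21 listed genes 18 were in the table, 8 above the median and 10 below, with a list median of -0.05. The 1.5-fold rule was met by 1 gene (5.56%, beside 6.26% of all transcripts). This was Itgb8, the beta chain of an integrin that releases TGF-beta from its latent complex, at 23.7 nFPKM in WT against 12.5 in cKO (-0.77). Itgav, which encodes the alpha chain that pairs with it, stood at 76.3 and 84.8 nFPKM (0.26). Bmp1, a protease that cleaves LTBP1, stood at 75.3 and 56.7 nFPKM (-0.30). Fn1, which encodes fibronectin, to which latent complexes attach, stood at 722 and 865 nFPKM (0.37). Ltbp3 and Itgb8 had similar ratios, but each was singled out as the 1 gene of its list past the 1.5-fold rule. The fibrillin genes Fbn1 (166 and 167 nFPKM, 0.11) and Fbn2 (289 and 252 nFPKM, -0.09) stood near the median. These fibrillin genes encode microfibrils that LTBPs bind and were picked out with their values in view.

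Of 11 genes for other matrix or secreted proteins that bind TGF-beta or limit its release, 4 stood above and 7 below the median, with a list median of -0.20. The 2 genes past the 1.5-fold rule were both lower and also past 2-fold, beside 2.82% of all transcripts lower past 1.5-fold and 0.674% lower past 2-fold. Lum (lumican) stood at 179 nFPKM in WT against 47.0 in cKO (-1.80), and Aspn (asporin) at 7.64 and 2.76 nFPKM (-1.09). Both are small leucine-rich proteoglycans of matrix. Of their relatives in the list, Bgn (biglycan) stood at 236 and 225 nFPKM (0.04). Dcn (decorin, 112 and 104 nFPKM, 0.01) and Fmod (fibromodulin, 20.1 and 16.0 nFPKM, -0.20) were named after their values were seen. Vasn, a membrane protein that binds TGF-beta, stood at 32.0 and 33.8 nFPKM (0.18).

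SMAD proteins and receptor regulators stood mostly near the median. Of 21 genes 13 stood above and 8 below the median, and the list median was 0.02. The 1.5-fold rule was met by 1 gene (4.76%, beside 6.26% of all transcripts). Pmepa1, a membrane protein that limits SMAD phosphorylation and is itself a target of the pathway, stood at 18.3 nFPKM in WT against 9.63 in cKO (-0.75). Tgif1, a SMAD co-repressor, stood at 42.7 and 30.5 nFPKM (-0.37). Smad3, which carries the signal of Tgfbr1, stood at 44.5 and 46.5 nFPKM (0.17), and Eng (endoglin), a co-receptor of endothelial cells, at 148 and 155 nFPKM (0.17). The other SMADs of the list were picked out with their values in view: Smad2 (48.3 and 46.6 nFPKM, 0.06), Smad4 (89.9 and 89.8 nFPKM, 0.10), and the inhibitory Smad7 (40.6 and 39.8 nFPKM, 0.08) and Smad6 (80.3 and 67.9 nFPKM, -0.13). Smad6 was the one SMAD of the list below the median.

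Genes known to respond to TGF-beta in other cells stood on both sides. Of 21 listed genes 10 were above and 11 below the median, with a list median of -0.04, yet 6 met the 1.5-fold rule (28.6%, beside 6.26% of all transcripts), 1 higher and 5 lower. Cyr61, a matricellular protein, stood at 94.2 and 132 nFPKM (0.59), barely past the limit. Lower were Postn (periostin, 973 and 487 nFPKM, -0.89), Pmepa1 (-0.75) and, named after their values were seen, Snai1 (18.4 and 9.87 nFPKM, -0.73), Tgfbi (120.5 and 68.3 nFPKM, -0.70) and Col3a1 (905 and 545 nFPKM, -0.63). Other matrix genes of the list, also named afterwards, did not meet the 1.5-fold rule and stood on both sides of the median. Fn1 stood at 0.37 and Ctgf at 0.55, while Lox stood at -0.04, Col1a1 at -0.13 and Col1a2 at -0.34. Of the smooth muscle genes, Acta2 stood at 689.8 and 941 nFPKM (0.55), Tagln at 320.4 and 409.8 nFPKM (0.46) and Cnn1 at 213 and 201 nFPKM (0.02), the last 2 named after their values were seen. Postn and Snai2 are also in the list of cushion mesenchyme markers, whose median was -0.92. The 12 hypoxia response genes all stood above the all-transcript median in the same values, with a list median of 0.94. The part of either list in these differences was not tested.

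**Figure D4:**
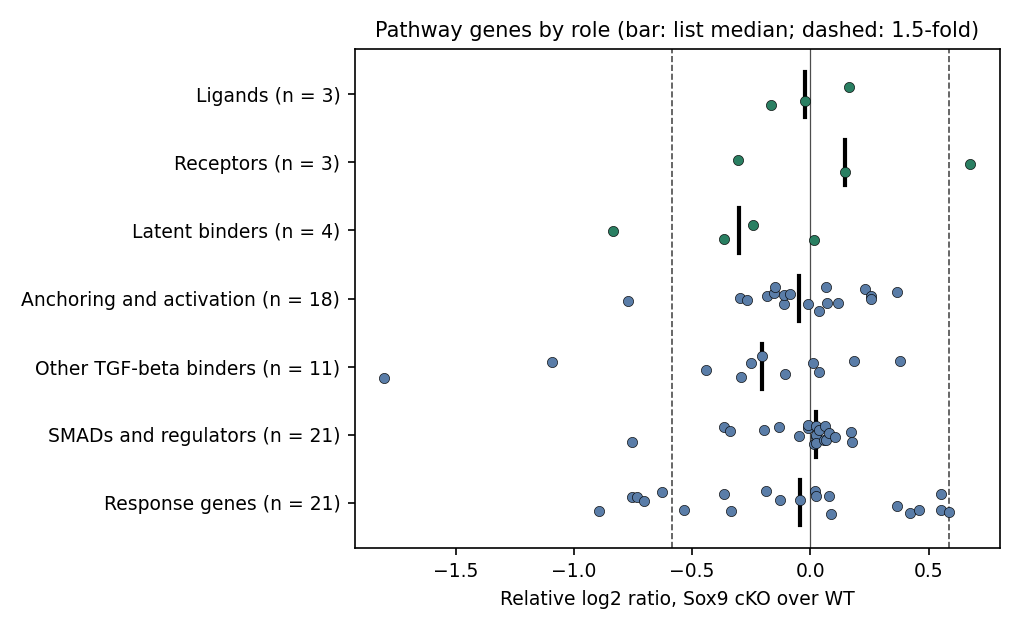
Relative log2 ratios of cKO to WT (horizontal axis) for the genes of each role, 1 point per gene with vertical scatter only for legibility, black bars at list medians and dashed lines at 1.5-fold. Ligands, receptors and SMADs and regulators lie inside the dashed lines apart from Tgfbr3 and Pmepa1, while response genes spread from -0.89 (Postn) to 0.59 (Cyr61).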

How the data were processed

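RNA-seq of E12.5 AVC was used, with 1 sample per genotype; groups follow the genotype labels. Per the file headers, the authors deposited FPKM values normalized further (nFPKM) and merged over duplicate libraries; the labels' protocols give 2 libraries per genotype. TopHat2, Cufflinks and edgeR, with build mm9, are listed without roles in the submitters' processing notes; how nFPKM was derived is not stated there. A deposited log2 fold change from the authors served as an alternative. Depth is unknown, since merged FPKM keep no counts, so no interval was given.

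The log2 ratio was computed with a pseudocount of 1 for transcripts reaching 1 nFPKM in WT or cKO, which removed 904 of 14697, and centred on their median. This understates ratios of low genes. With 1 value per genotype no test was made, and rules of 2-fold and 1.5-fold were used as sizes. The ratio, the centring and the 2-fold rule were tested on simulated data, and the 1.5-fold rule and the promoter matches were not. Members and lists were chosen with earlier results of these data known. Named genes were all 10 members, Sox9, and in each list the 2 with the largest ratio in each direction and any past 2-fold, with at least 3 nFPKM in either genotype; others are named as chosen later. An item of the lists is not reported here. Marker lists are given by counts and sums. Promoters came from RefSeq (GRCm38.p6), matched by symbol. The peak lists are in mm9 and were not used here, since no mm9 annotation was at hand. Python 3.11.15, numpy 2.4.6, pandas 2.3.3 and matplotlib 3.10.9 were used.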

Additional observations from a re-analysis of the deposited data

How the results depend on the processing

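The 10 ratios were recomputed with pseudocounts of 0.1 and 5, with no filter and a filter of 3 nFPKM, without centring, with the 5 globin transcripts removed and both columns rescaled (globins held 4.24% of all nFPKM in WT, 9.65% in cKO), and with the authors' deposited log2 fold change. Ltbp3 stayed between -0.94 and -0.76 and met the 1.5-fold rule in all of them. Tgfbr3 ran from 0.57 to 0.69; without centring the number of genes past 1.5-fold in the higher direction went from 1 to 0 and the median of the 10 genes was -0.20. That setting adds the all-transcript median of -0.11 to every ratio. Ltbp1 changed sign without centring and with a pseudocount of 5, and the other 9 genes kept theirs under every alternative that included them; Ltbp2 is removed by the filter of 3 nFPKM. Over all transcripts, 208 met the 2-fold rule, 496 with a pseudocount of 0.1 and 81 with a pseudocount of 5. The 1.5-fold rule was met by 864, and by 1342 and 315 under the same settings. With a pseudocount of 5, the TGF-beta response genes past 1.5-fold went from 6 to 4 and the activin branch genes from 3 to 2. Without centring the count of response genes stayed at 6, but Cyr61 no longer met the rule and Snai2 met it in the lower direction. Counts of the other pathway lists did not change under any alternative. Without the first 150 bases of the promoter windows, ACAAAG was found in 3 member windows, of Tgfb2 and Tgfbr1, and CAGACA in 2, of Ltbp1 and Ltbp3. Among all windows of genes in the expression table, shortened in the same way, the shares were 5.96% for ACAAAG and 7.76% for CAGACA. Counts of peaks near the genes and their alternatives were not run. No paired analysis was possible because each genotype has 1 merged value. No replicate could be left out for the same reason, so the spread behind each ratio stays unknown.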

Other observations

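The activin branch, whose ligands also signal through Smad2 and Smad3, was examined beside the TGF-beta genes. Of 15 listed genes 12 passed the filter, 6 above and 6 below the all-transcript median, with a list median of 0.01. The 3 past the 1.5-fold rule (beside 6.26% of all transcripts) were all lower in cKO, where 2.82% of all transcripts met the rule, and 1 of them was also past 2-fold (0.674% of all transcripts). Mstn (myostatin) stood at 24.5 nFPKM in WT against 1.83 in cKO (-3.07), Acvr1c, a type I receptor, at 5.10 and 2.40 nFPKM (-0.74), and Inhba, which encodes an activin chain and was named after its value was seen, at 21.9 and 11.8 nFPKM (-0.73). The receptor Acvr2b (13.7 and 14.8 nFPKM, 0.20) and the inhibitor Fst (follistatin, 12.3 and 13.4 nFPKM, 0.22) stood above the median.

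The genes with values most like those of Ltbp3, by Euclidean distance in log2(nFPKM + 1) over the 2 genotypes, were Kctd12 (46.7 and 23.8 nFPKM), Stard10 (45.5 and 24.3 nFPKM) and 6330403K07Rik (47.3 and 24.1 nFPKM), and these 3 were the only ones within 0.1 of it. Nearest to Tgfbr3 were Acer2 (38.9 and 56.4 nFPKM), Snhg12 (37.1 and 58.4 nFPKM) and Pcgf5 (41.2 and 55.9 nFPKM), with 2 genes within 0.1. The ligands had far more neighbours within that distance, 99 for Tgfb1, 143 for Tgfb2 and 131 for Tgfb3. Nearest were Eea1, St5 and Ints10 for Tgfb1, Snx4, Cpsf3 and Tubb2a for Tgfb2, and Slc35c2, BC030336 and 2700007P21Rik for Tgfb3. Likeness over 2 values describes level and ratio only.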
